A study of Mus musculus with 5 samples.

Results

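Of the 2575 regions obtained by merging the H2AK119Ub peaks of 4 libraries, 580 (22.5%) held a listed peak of the PML-RARa library and of no other library. They were chosen by this pattern of listed peaks alone, after merging peaks that overlapped or touched, so their presence in one list and absence from the others is the rule and not a result. Each of the 580 regions was a single PML-RARa peak. They made up 32.7% of the 1772 peaks of that list (95% interval 30.5 to 35.0) and 7.86 Mb of its 35.7 Mb, or 22.0%.

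Chromatin immunoprecipitation and sequencing (ChIP-seq) for ubiquitinated histone H2A (H2AK119Ub) was done on lineage-negative bone marrow progenitors of C57BL/6 mice, kept in liquid culture. Progenitors were transduced with PML-RARa, MLL-AF9 or HOXA9, or were left non-transduced, with 1 library in each group. All 4 groups carried the genotype R26CreERT2;Ring1a-/-;Ring1bf/f;Cdkn2a-/-, that is a Cre recombinase fused to a modified oestrogen receptor at the Rosa26 locus, loss of Ring1a and Cdkn2a, and a Ring1b allele that Cre can delete. The labels do not say whether Cre had been activated, and no library of cells transduced with an empty vector was described, so against the non-transduced library PML-RARa and transduction itself cannot be told apart. The MLL-AF9 and HOXA9 cells were transduced as well. No age was given. The peak lists hold no expression values, so the cell type could not be checked against its marker genes.

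H2AK119Ub is placed by Polycomb repressive complex 1 (PRC1), in which RING1A and RING1B are the ubiquitin ligases, and it is found over silenced genes, often as broad domains at developmental regulators. Cdkn2a encodes cell cycle inhibitors that PRC1 represses in haematopoietic progenitors. PML-RARa is the fusion protein of acute promyelocytic leukaemia. It binds DNA through the retinoic acid receptor part and recruits co-repressors there, and it blocks the differentiation of myeloid progenitors at the promyelocyte stage.

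With 1 library in each group no difference between groups could be tested, and all comparisons are between single libraries. Where an interval is given, it is a 95% binomial interval, exact by Clopper and Pearson for a share and from the order statistics for a median. Such intervals take peaks for independent draws and cover no error but that of counting. The depth of the libraries is unknown. Positions are those of the mm9 build, and genes were not assigned to them because no mm9 annotation was used here.

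Peaks listed in PML-RARa alone were narrower than the rest of the same list. Their median width was 11.4 kb (interval 10.4 to 12.3), against 15.4 kb for the 431 peaks shared with 1 other library (14.4 to 16.3), 19.8 kb for the 419 shared with 2 (17.8 to 21.3) and 22.5 kb for the 342 in regions of all 4 libraries (21.2 to 24.4). The intervals did not overlap, apart from those for 2 and for all 3 other libraries. The regions of PML-RARa alone ranged from 0.451 to 116 kb, and the middle 50% lay between 6.60 and 17.5 kb. Of the 580 regions, 95 were under 5 kb (16.4%, interval 13.5 to 19.6), compared with 31 of the 1192 shared peaks (2.60%, interval 1.77 to 3.67). Domains over 50 kb numbered 6 among the 580 (1.03%, interval 0.381 to 2.24) and 80 among the shared peaks (6.71%, interval 5.36 to 8.28). Width is tied in part to the rule, in this list and in the others. A wider peak covers more bases at which a peak of another list can overlap it, which takes it out of the set. How much of the difference in width follows from the rule was not tested.

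By their medians, peaks of a single library were narrower than shared peaks in each of the 4 lists, and the lists differed in width as a whole. Over all its peaks the PML-RARa list had a median width of 15.95 kb, the MLL-AF9 list one of 14.6 kb, the HOXA9 list one of 17.3 kb and the non-transduced list one of 18.3 kb. The 324 regions of MLL-AF9 alone had a median width of 11.4 kb (interval 10.3 to 12.0), against 16.1 kb for the shared peaks of that list. The 46 regions of HOXA9 alone had a median of 11.6 kb (7.21 to 14.8), against 17.8 kb for shared peaks. The 309 regions of the non-transduced library alone had a median of 16.0 kb (14.2 to 17.7), against 19.4 kb for shared peaks. For PML-RARa the shared peaks together had a median of 19.0 kb.

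The authors' peak score, whose scale is not stated, is compared here between peaks of the PML-RARa list only. For the other lists it served only to shorten a list, as given further below. Regions of PML-RARa alone had a median score of 907 and a range of 700 to 2443, against a median of 1061 and a range of 700 to 2763 for the shared peaks of the list. The scores were coarse: the 580 regions had 150 distinct values, and 65 regions had a score of 928. When the list was divided into quartiles by score, the share of peaks found in no other list was 13.1% in the highest quartile (58 of 443 peaks, interval 10.1 to 16.6), 26.2% in the next, 41.1% in the next and 50.6% in the lowest (224 of 443, interval 45.8 to 55.3). By width, the share was 14.0% in the widest quartile (62 peaks, interval 10.9 to 17.6) and 56.0% in the narrowest (248 peaks, interval 51.2 to 60.7). The overlap rule itself favours narrow peaks, so the shares by width are in part given by construction.

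**Figure D1:**
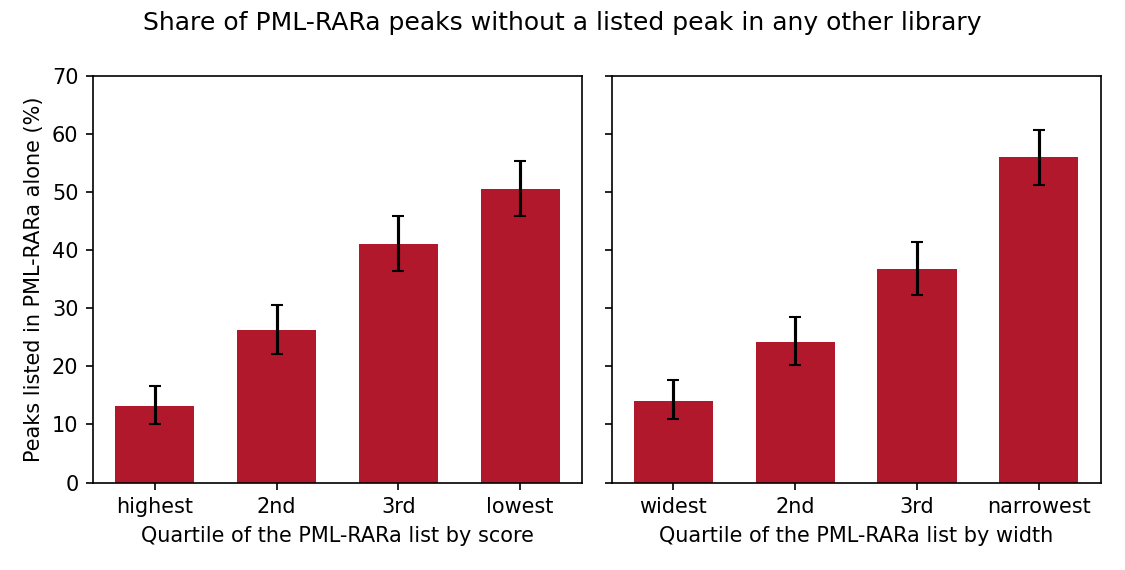
Share of the listed PML-RARa peaks with no listed peak in any other library, by quartile of the list by score (left) and by width (right). Bars are percentages of 443 peaks each and whiskers are exact 95% binomial intervals. The share is 13.1% in the highest and 50.6% in the lowest quartile by score, and 14.0% in the widest and 56.0% in the narrowest quartile by width.

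In each of the 4 quartiles by score, the share was higher at each step to narrower peaks, although the intervals of neighbouring steps overlapped in all but 1 case. Among the 148 peaks in the lowest quartile of both, 108 were listed in PML-RARa alone (73.0%, interval 65.1 to 79.9). Among the 161 peaks in the highest quartile of both, 9 were (5.59%, interval 2.59 to 10.3). Within the highest quartile by score, the median width was 11.9 kb for peaks listed in PML-RARa alone and 22.1 kb for shared peaks, so the narrow width was not limited to peaks with low scores. Across the 580 regions width and score had a Spearman rho of 0.098, and across the 1192 shared peaks 0.177; this describes 1 list, and its peaks are not independent replicates.

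**Figure D2:**
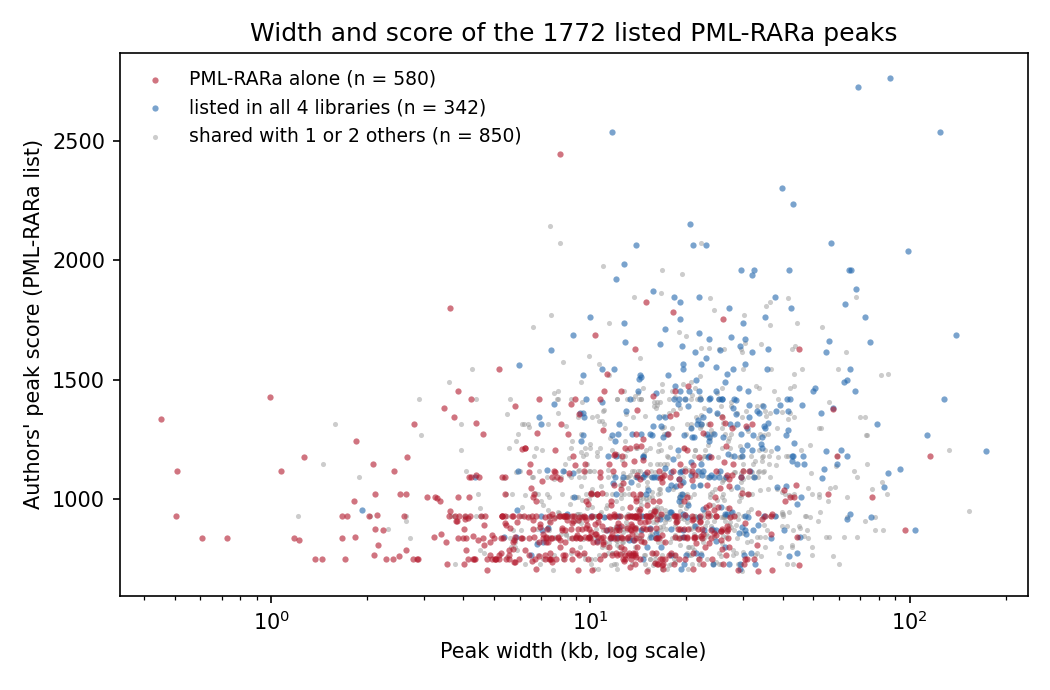
Width (x axis, kb, log scale) against the authors' score (y axis) for each listed PML-RARa peak, with red points for the 580 peaks listed in PML-RARa alone, blue points for the 342 peaks in regions of all 4 libraries and grey points for the other 850 peaks. The red points lie mostly at the lower left, with a median of 11.4 kb and a score of 907, and a few narrow peaks stand at high scores.

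A small set combined a high score with a narrow peak. In all, 24 regions of PML-RARa alone were in the highest quartile by score and the narrowest by width, out of 74 PML-RARa peaks of that kind (32.4%, interval 22.0 to 44.3). This share was near the 32.7% of the whole list, and the rest of the 74 were shared with another library. The combination was therefore not particular to PML-RARa alone. The highest score of the 580 was 2443, the fifth in the whole list, for a peak of 8.00 kb at chr17:36364104-36372105. No other list had a peak within 116 kb of it, although 6 HOXA9 numbers and 1 non-transduced number were missing between the flanking listed peaks. Also on chromosome 17, peaks of 3.62 kb (chr17:39980015-39983632, score 1800) and 0.992 kb (chr17:39984819-39985810, score 1429) lay 1.19 kb apart, and the nearest peak of another list was 2784 kb from the wider and 2789 kb from the narrower one. At both peaks of this pair 6 HOXA9 numbers and 1 non-transduced number were missing as well. Whether this place holds repeated sequence, to which reads cannot be assigned uniquely, was not tested, and the scores and the isolation of this pair are given with that limit. The narrowest of all, 0.451 kb at chr11:108872958-108873408, had a score of 1334.

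Most of the other regions with the highest scores were wider than 10 kb. The peak at chr2:118795126-118810043 was 14.9 kb wide with a score of 1825, and an MLL-AF9 peak lay 7.95 kb from it. The peak at chr11:120388850-120407036 was 18.2 kb wide with a score of 1784, and the one at chr13:113767480-113793457 was 26.0 kb wide with a score of 1755. A peak of 45.1 kb at chr12:36692635-36737756 (score 1628) was among both the 10 highest scores and the 10 widest regions, and the nearest peak of another list lay 4435 kb away. The peak at chr3:127325423-127339190 (13.8 kb, score 1628) was 1555 kb from any other list. Peak numbers were missing between the flanking listed peaks in every other list at the chr2, chr13 and chr12 peaks. They were missing in MLL-AF9 and HOXA9 at the chr3 peak and in the non-transduced list at the chr11 peak. These distances are therefore distances to listed peaks only. Of the 10 regions with the highest scores, 2 lay within 50 kb of a peak of another library, and of the 10 widest regions 7 did.

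The widest region listed in PML-RARa alone spanned 116 kb at chr8:108465291-108581544 (score 1180). The nearest other peak, of MLL-AF9, was 73.7 kb away, at a place where PML-RARa had a peak as well. Between the listed peaks flanking this widest region, 2 HOXA9 and 3 non-transduced numbers were missing. On chromosome 9, regions of 97.0 kb (chr9:69867471-69964420, score 872) and 59.3 kb (chr9:70044156-70103411, score 1183) lay on either side of a shared PML-RARa peak. The non-transduced peak there, at 69975405 to 70001913, was 11.0 kb from the first region and 42.2 kb from the second, so PML-RARa peaks were listed on both sides of it where the non-transduced list had none. No non-transduced or MLL-AF9 peak number was missing at these regions, so no numbered call of those libraries had been left out there, while 1 HOXA9 number was missing. A region of 57.4 kb at chr14:70030095-70087502 (score 1376) was separated by 0.826 kb from one of 20.3 kb (chr14:70088329-70108596, score 1474). A region of 76.4 kb at chr8:125214326-125290755 lay 7.24 kb from an MLL-AF9 peak and 9.63 kb from a non-transduced peak. Numbers were missing in every other list at this region, and in MLL-AF9 and the non-transduced list at the region of 57.4 kb.

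Most of the 580 regions did not lie directly beside a peak of another list. The median gap to the nearest peak of any other list was 129 kb. A peak of another list was within 10 kb of 65 regions (11.2%, interval 8.76 to 14.1) and within 50 kb of 183 (31.6%, interval 27.8 to 35.5), and 84 regions (14.5%, interval 11.7 to 17.6) had none within 1000 kb. The most isolated, at chr5:5371043-5383837 (12.8 kb, score 1215), was 18.4 Mb from any peak of another list. Of the 65 near regions, 45 (69.2%) lay beside a region in which PML-RARa had a peak too, and 11 beside a region of all 4 libraries. Over all 580 regions, the nearest peak of another list was in a region with a PML-RARa peak for 340 (58.6%) and in a region of all 4 libraries for 77. Near regions had a median width of 14.0 kb and the 84 isolated ones 7.19 kb.

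Regions of PML-RARa alone had an MLL-AF9 peak within 50 kb less often than regions of the non-transduced library alone, and a HOXA9 peak within 1000 kb less often. Measured against the same MLL-AF9 list, 19.0% of the regions of PML-RARa alone had a peak within 50 kb (110 of 580, interval 15.9 to 22.4), and 30.4% of the regions of the non-transduced library alone did (94 of 309, interval 25.3 to 35.9). For HOXA9 alone the share was 17.4% (8 of 46, interval 7.82 to 31.4), and this wide interval overlapped both others. The median gaps to MLL-AF9 peaks were 243 kb for PML-RARa alone and 253 kb for HOXA9 alone. A low share near MLL-AF9 peaks was therefore not particular to PML-RARa alone. Against the HOXA9 list the shares were 11.4% for PML-RARa alone (interval 8.91 to 14.2), 10.5% for MLL-AF9 alone (7.38 to 14.4) and 12.6% for the non-transduced library alone (9.13 to 16.8), and these intervals overlapped. Within 10 kb, the intervals overlapped against the MLL-AF9 list as well, with 5.69% for PML-RARa alone (3.95 to 7.90) and 10.7% for the non-transduced library alone (7.47 to 14.7). Within 1000 kb, 64.7% of the regions of PML-RARa alone had a HOXA9 peak (interval 60.6 to 68.5), against 76.7% for the non-transduced library alone (71.6 to 81.3), and the median gaps to HOXA9 peaks were 534 kb and 365 kb. For MLL-AF9 alone the share within 1000 kb of a HOXA9 peak was 60.8% (55.3 to 66.2) and the median gap 698 kb. The distance from HOXA9 peaks was therefore not particular to PML-RARa alone. Against all other lists together the median gap was 129 kb for PML-RARa alone, 114 kb for MLL-AF9 alone and 63.4 kb for the non-transduced library alone. Those medians are set against different lists, and the longest list, PML-RARa, counts as another list for MLL-AF9 and non-transduced regions only.

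**Figure D3:**
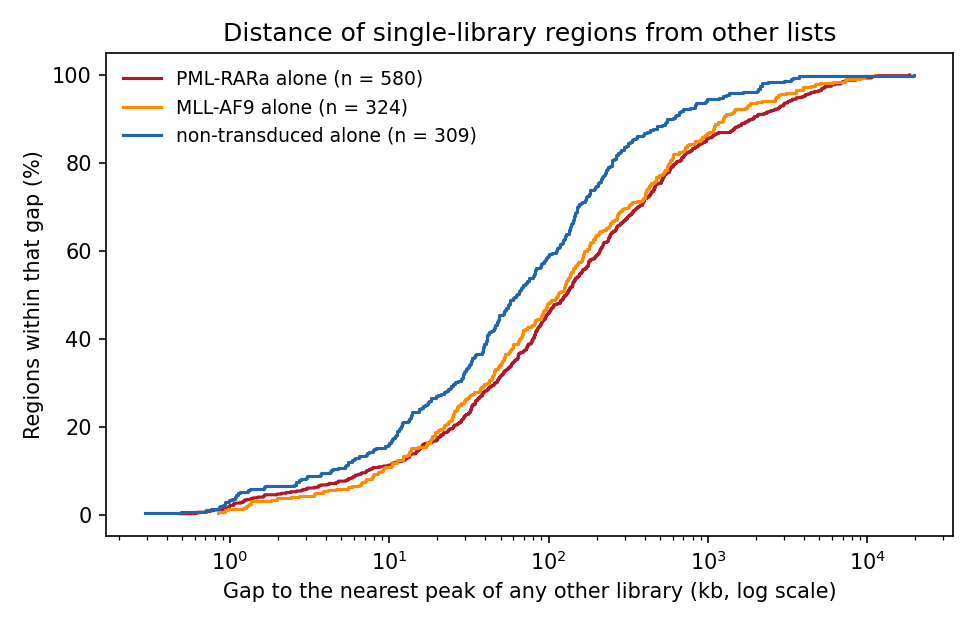
Cumulative share of regions (y axis, percent) by the gap to the nearest peak of any other library (x axis, kb, log scale), for regions listed in PML-RARa alone (red, n = 580), MLL-AF9 alone (orange, n = 324) and the non-transduced library alone (blue, n = 309). The medians are 129 kb, 114 kb and 63.4 kb, and the blue curve lies to the left of the others over most of its course.

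The closest neighbours show where the rule draws its line. The smallest gap was 490 bp, between the region at chr8:12869803-12880862 (11.1 kb, score 766) and a non-transduced peak, and 11 regions in all had a peak of another list within 1000 bp. On chromosome 13, the region at chr13:56694850-56713562 (18.7 kb, score 910) lay 607 bp from a HOXA9 peak, and on chromosome 19 the region at chr19:4707957-4719821 (11.9 kb, score 1184) lay 631 bp from an MLL-AF9 peak. Just outside the rule, the PML-RARa peak at chr6:119429914-119431362 (1.45 kb, score 1148) overlapped a non-transduced peak by 1316 bp, the smallest overlap found in bp. This was 90.8% of its short width. The PML-RARa peak at chr2:12216116-12227990 (11.9 kb, score 730) overlapped a non-transduced peak by 1628 bp, or 13.7% of its width.

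The longest run of regions of PML-RARa alone lay on chromosome 13. Between 37030401 and 37367727, a span of 337 kb, 8 PML-RARa peaks followed each other with no peak of any other library among them. Their widths were 32.1, 19.9, 1.85, 34.5, 11.2, 20.3, 9.27 and 4.13 kb and their scores 1315, 934, 1245, 916, 872, 874, 839 and 751, from the low to the high end. Together they covered 39.5% of the span, and 3 of the gaps between them were shorter than 10 kb. The nearest MLL-AF9 peak was 199 kb from the run, the nearest HOXA9 peak 968 kb and the nearest non-transduced peak 3453 kb. No MLL-AF9 peak number was missing there, while 3 HOXA9 numbers and 1 non-transduced number were missing between the flanking listed peaks.

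A further group of 5 such regions spanned 528 kb at chr13:93188567-93716860, with widths of 11.0 to 27.2 kb and scores of 765 to 1288 and with no peak of another library among them. A HOXA9 peak lay 1.62 kb from its last region. On chromosome 2, 6 regions were found within 875 kb (chr2:118191757-119066312, scores 763 to 1825), but here 2 shared PML-RARa peaks, 2 MLL-AF9 peaks and 1 non-transduced peak lay in the same span. On chromosome 17, 4 regions between 33952966 and 34599195 (scores 772 to 1148) had no peak of another library among them. In all, 283 of the 580 regions (48.8%) stood next to another on the chromosome with no other kind of region between them, compared with 117 of 324 for MLL-AF9 alone (36.1%) and 99 of 309 for the non-transduced library alone (32.0%). A larger class gives more such neighbours by its size, so these shares are not comparable as a measure of clustering. Another region of PML-RARa alone lay within 10 kb of 48 regions.

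**Figure D4:**
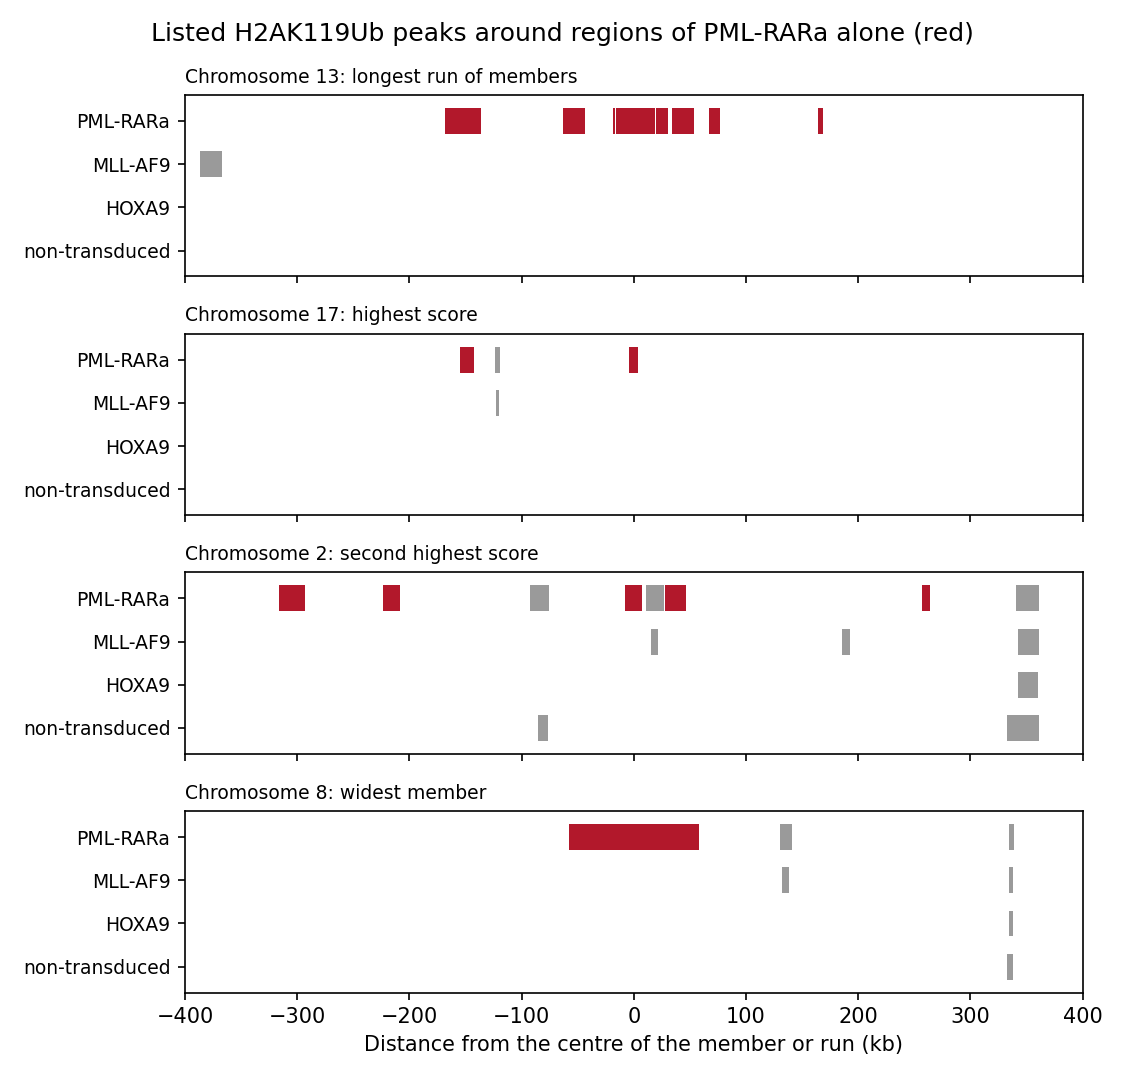
Listed peaks of the 4 libraries (rows) against the distance from the centre (x axis, kb) around the longest run of regions listed in PML-RARa alone, the 2 with the highest scores and the widest one. Bars are drawn to scale, with red for peaks listed in PML-RARa alone and grey for all others. The run on chromosome 13 has 8 red bars and 1 MLL-AF9 peak within 400 kb of its centre, with no HOXA9 or non-transduced peak.

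The share of the list found in PML-RARa alone differed between chromosomes. It was 49.3% on chromosome 13 (35 of 71 peaks, interval 37.2 to 61.4), 45.2% on chromosome 12 (33 of 73, interval 33.5 to 57.3) and 42.9% on chromosome 17 (39 of 91, interval 32.5 to 53.7). Chromosome X, with 4 of 6 peaks (66.7%, interval 22.3 to 95.7), had too few to place. At the other end it was 20.3% on chromosome 7 (26 of 128, interval 13.7 to 28.3). The intervals of chromosomes 13, 12 and 17 lay above that of chromosome 7 and, with 20 chromosomes looked at, this contrast of the extremes was chosen after the values were seen. Without the run of 8 peaks, the share on chromosome 13 was 42.9% (27 of 63, interval 30.5 to 56.0).

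Chromosome 13 also held a larger part of the PML-RARa list as a whole, with 4.01% of its peaks, against 2.77% in MLL-AF9, 3.39% in HOXA9 and 2.40% in the non-transduced library. The share of peaks listed in 1 library alone on that chromosome was 23.1% for MLL-AF9 (9 of 39), 19.0% for HOXA9 (4 of 21) and 18.8% for the non-transduced library (6 of 32). Over the whole lists of these libraries the shares were 23.0%, 7.42% and 23.2%, in the same order. On chromosome 12 it was 36.2% for MLL-AF9 (21 of 58) and 23.4% for the non-transduced library (11 of 47).

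**Figure D5:**
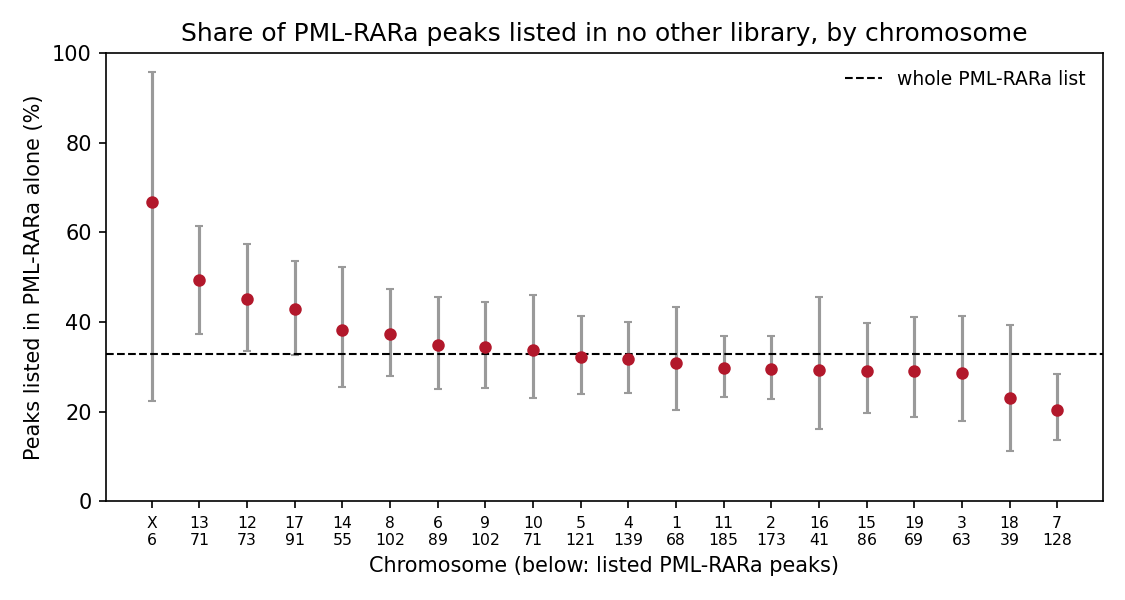
Share of listed PML-RARa peaks found in no other list (y axis, percent) by chromosome (x axis, with the number of listed PML-RARa peaks below each name). Points are shares, whiskers are exact 95% binomial intervals and the dashed line is the share over the whole list (32.7%). Chromosome 13 stands at 49.3% with 71 peaks and chromosome 7 at 20.3% with 128, while chromosome X has 6 peaks.

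Absence from another list does not show that no call was made. Peak numbers were missing from every list, and a number missing between the 2 listed peaks that flank a region leaves room for an unlisted call there. No MLL-AF9 number was missing at 329 of the 580 regions (56.7%, interval 52.6 to 60.8), no non-transduced number at 273 (47.1%, interval 42.9 to 51.2) and no HOXA9 number at 226 (39.0%, interval 35.0 to 43.1). At 68 regions (11.7%, interval 9.22 to 14.6) no number was missing in any of the 3 other lists, so no numbered call of any of them was left out. At 83 regions a number was missing in all 3. For regions of MLL-AF9 alone, 35 of 324 (10.8%, interval 7.64 to 14.7) had no missing number in any other list, and for the non-transduced library alone 49 of 309 (15.9%, interval 12.0 to 20.4). The other lists differ between these classes, so these shares are not like for like. Against the same HOXA9 list, the 39.0% compares with 37.3% for MLL-AF9 alone (interval 32.1 to 42.9). For the non-transduced library alone it was 43.4% (interval 37.8 to 49.1), and these intervals overlapped.

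The 68 regions without a missing number had a median width of 9.55 kb (interval 6.12 to 12.3), against 11.6 kb for the other 512 (10.5 to 12.5), and the intervals overlapped. Their highest scores were 1685 at chr15:100460195-100470539 (10.3 kb) and 1545 at chr5:36827525-36832682 (5.16 kb), which were also among the 10 highest of the 580. A peak of 4.22 kb at chr6:122750345-122754567 had a score of 1418 and lay 1620 kb from any other list. The next were 3.49 kb at chr10:74523705-74527191 (score 1381) and 2.79 kb at chr4:131601887-131604679 (score 1315). All 5 were narrower than the median of the 580.

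Relative to the non-transduced library, 901 PML-RARa regions held no non-transduced peak. Of these, 580 were in no other list (64.4%, interval 61.1 to 67.5) and 321 were also listed in MLL-AF9, HOXA9 or both. The number of regions found in PML-RARa alone depended on the length of the PML-RARa list. With the PML-RARa and MLL-AF9 lists shortened by score to the 1332 peaks of the non-transduced list, 364 regions were listed in PML-RARa alone, 347 in MLL-AF9 alone and 360 in the non-transduced library alone. At the length of 1332 peaks the share of the PML-RARa list was 27.3%. The HOXA9 list was left at its 620 peaks, so not all lists were of equal length. Depth and the yield of the immunoprecipitation can set the length of a list and could not be told apart from the mark.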

How the data were processed

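Peaks of 4 immunoprecipitated libraries were analysed, and the input, the fifth sample, was not analysed here. The submitters' processing notes name Bowtie, MACS2 and the mm9 build. How the input was used, and with which versions and settings, is not given in the sources used here. The deposited lists had 5 columns and no header: chromosome, start, end, name and score. The score is the authors' own value on a scale not given, and deposited scores were 700 or above in every list. Each list was made from 1 library, so no replicates were pooled and there is no test between groups. Deposited starts were read as counting from 0, as in BED files, and are printed from 1 upwards.

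The 5132 peaks were joined into regions wherever they overlapped or were adjacent, and a region belongs to every library that has a peak there. Gaps are the bases between a region and the nearest peak. Peak numbers absent between the 2 listed peaks that flank a region were counted for each list. The regions and lists were chosen with earlier results of these data known. Regions were named by rule: the 10 highest scores, the 10 widest, the narrowest, the longest run, those nearest to each other list and those at the edge of the rule. The 5 with the highest scores among regions without a missing number, the groups within 1 Mb, the narrow peaks with high scores and the most isolated region were added after their values were seen. Gene lists had been prepared, but the annotation at hand is of a later assembly than mm9, so no gene was assigned and no sequence is printed. The code was checked on simulated peak lists. Software: scipy 1.17.1, numpy 2.4.6, matplotlib 3.10.9 and pandas 2.3.3 under Python 3.11.15.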

Additional observations from a re-analysis of the deposited data

How the results depend on the processing

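The count of 580 regions was within 1.5 times its value when peaks were merged within 1000 or 10000 bp or the HOXA9 list was not used, and it fell to 356 with the upper 75% and to 174 with the upper 50% of the PML-RARa list by score, to 336 with the upper 50% of every list, and to 68 where no peak number was missing in any other list. With the PML-RARa and MLL-AF9 lists at the length of the non-transduced list, an alternative chosen after seeing the data, it was 364. Fewer PML-RARa peaks enter by construction in the settings that shorten the PML-RARa list, and the missing-number setting keeps part of the 580. Where other lists are shortened as well, fewer of their peaks are left to overlap a PML-RARa peak. The share of 32.7% of the list was 35.9% with the HOXA9 list not used, 19.6% with the upper 50% of the PML-RARa list, 37.9% with the upper 50% of every list and 3.84% without a missing number. It was 27.3% with the PML-RARa and MLL-AF9 lists at the length of the non-transduced list. The median width of 11.4 kb was 12.5 kb with the upper 50% of the PML-RARa list, 13.7 kb with the upper 50% of every list and 9.55 kb without a missing number. The width ratio to peaks of all 4 libraries was 0.507, and 0.424 without a missing number. It stayed below 1 under each alternative run, but each of these kept the overlap rule, which by itself favours narrow peaks. The share within 50 kb of another list was 21.1% with the upper 50% of every list, where fewer other peaks are left. Regions of MLL-AF9 alone then numbered 210. Alternatives on gene starts were not run, for want of an mm9 annotation. No paired analysis was possible because each group had 1 library. The lists hold no read counts, so depth limits every absence from a list to an unknown degree.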
